A study of Mus musculus with 13 samples.

Results

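The lysosomal acid hydrolase list was a set of 48 named genes, taken by symbol with earlier results of these data known, and all 48 had a row among the 35013 genes of the count table. It held 14 cathepsins and other proteases, 14 glycosidases, 6 sulfatases and acetyltransferases of glycosaminoglycan breakdown, 5 lipid-handling hydrolases, 2 activator proteins, 3 phosphatases and nucleases, and 4 genes of mannose-6-phosphate tagging and sorting. All 48 were abundant enough to be tested, so no member was lost to the filter on low counts. The study asked whether deletion of Spns1, which encodes a transporter of the lysosomal membrane, and loading with iron alter the same transcripts of the kidney proximal tubule. RNA was measured in 13 kidney libraries from female mice. All mice carried Megalin3'Cre-Ert, a Cre recombinase that tamoxifen activates and that the megalin promoter drives, and 1 Uprt flox allele (Uprt flox/+), whose enzyme lets cells build injected 4-thiouracil into new RNA.

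Beside these alleles, mice of the 4 Spns1 KO libraries were Spns1 flox/flox. Mice of the 5 WT and 4 FeO libraries were Spns1 flox/+ in the methods, although their labels give the genotype as Spns1 WT. FeO mice were injected with 12 mg of iron (iron sucrose) on each of 3 days and were euthanized 1 week later. Neither Spns1 KO nor WT mice received iron. Tagged RNA was pulled out of whole-kidney RNA, and the ages of the mice were not given in the sources used here. Total counts per library ranged from 23068023 to 71296474, and a member gene received between 56 and 53825 counts in a library. The Spns1 count itself did not separate the groups. It ranged from 36.6 to 59.0 CPM (counts scaled to library size) in the libraries labelled Spns1 KO and from 39.2 to 62.9 CPM in WT, and Spns1 KO differed from WT by -0.31 on the log2 scale (standard error 0.18, edgeR adjusted p = 0.225). For Megalin3'Cre-Ert mice with Spns1 flox/flox, the paper reports loss of Spns1 RNA and SPNS1 protein in the proximal tubule, which this count does not show. By the methods, Cre removes exon 3 of the floxed allele, while the count is given per gene. Whether this accounts for the count was not tested. Spns1 KO below therefore means the libraries that carry that label. The libraries held all 12 proximal tubule markers examined, Lrp2 and Slc34a1 among them, and none of the 13 leukocyte, 5 plasma and B cell, 7 distal nephron, 4 podocyte, 5 endothelial or 5 fibroblast markers was at 0 over the series, so RNA of other kidney cells was present as well. In such bulk RNA, fewer cells of a type and less RNA per cell cannot be told apart.

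Acid hydrolases are the digestive enzymes of the lysosome. Most are made at the endoplasmic reticulum, receive a mannose-6-phosphate tag in the Golgi, and are carried to endosomes by mannose-6-phosphate receptors, where the low pH releases and activates them. The proximal tubule takes up filtered proteins through megalin and cubilin and degrades them in lysosomes, and inherited loss of single hydrolases causes lysosomal storage diseases. Many of these genes hold E-boxes of the CLEAR type near their start sites, which transcription factors of the TFEB family bind.

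Members of the list were mostly higher in both models, and more of them in Spns1 KO. In Spns1 KO, 28 of the 48 were upregulated and 0 downregulated relative to WT, where 14% of all 16468 genes tested were upregulated and 7.55% downregulated. Calls required an edgeR adjusted p under 0.05 (quasi-likelihood test, Benjamini-Hochberg over all genes tested) together with a log2 fold change above 0.5 or below -0.5. In FeO, 22 members were upregulated and 1 was downregulated, where 22.4% of all genes were upregulated and 19.7% downregulated. The median log2 fold change of the 48 members was 0.65 in Spns1 KO and 0.50 in FeO, and that of all genes tested was -0.045 and -0.011. In Spns1 KO, 23 members had every library above every WT library, which held for 13.1% of all genes, and 0 had every library below, which held for 9.38%. In FeO these numbers were 17 above (16.9% of all genes) and 1 below (16.4%). At an unadjusted p under 0.05, and with no limit on size, 35 members passed in Spns1 KO, where 37.1% of all genes did, and 32 in FeO, where 53.5% did. By DESeq2, 28 were upregulated and 0 downregulated in Spns1 KO. Of 12 proximal tubule markers, 8 were upregulated and 0 downregulated in Spns1 KO, with a median log2 fold change of 0.96. In FeO 3 of them were upregulated and 1 was downregulated, with a median of -0.32. Several sets of markers of other kidney cells were higher as well. In every Spns1 KO library the summed levels of plasma and B cell markers (11.5 to 62.8 CPM, against 2.65 to 11.1 CPM in WT), endothelial markers (183 to 203 against 148 to 173 CPM), fibroblast markers (125 to 165 against 80.2 to 118 CPM) and leukocyte markers, given with Ctss, lay above every WT library. In FeO this held for leukocyte, plasma and B cell (14.5 to 60.6 CPM) and podocyte markers (245 to 582 against 134 to 242 CPM in WT). Called up in Spns1 KO were 2 of 5 plasma and B cell, 2 of 5 endothelial and 2 of 5 fibroblast markers. So were 2 of 4 podocyte and 3 of 7 distal nephron markers. In FeO, 2 of 5 plasma and B cell, 2 of 4 podocyte and 3 of 7 distal nephron markers were called up. Of the 5 endothelial markers 1 was up and 1 down in FeO, and 0 of 5 fibroblast markers were called. The part of any of these markers in the levels of the members was not tested.

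**Figure D1:**
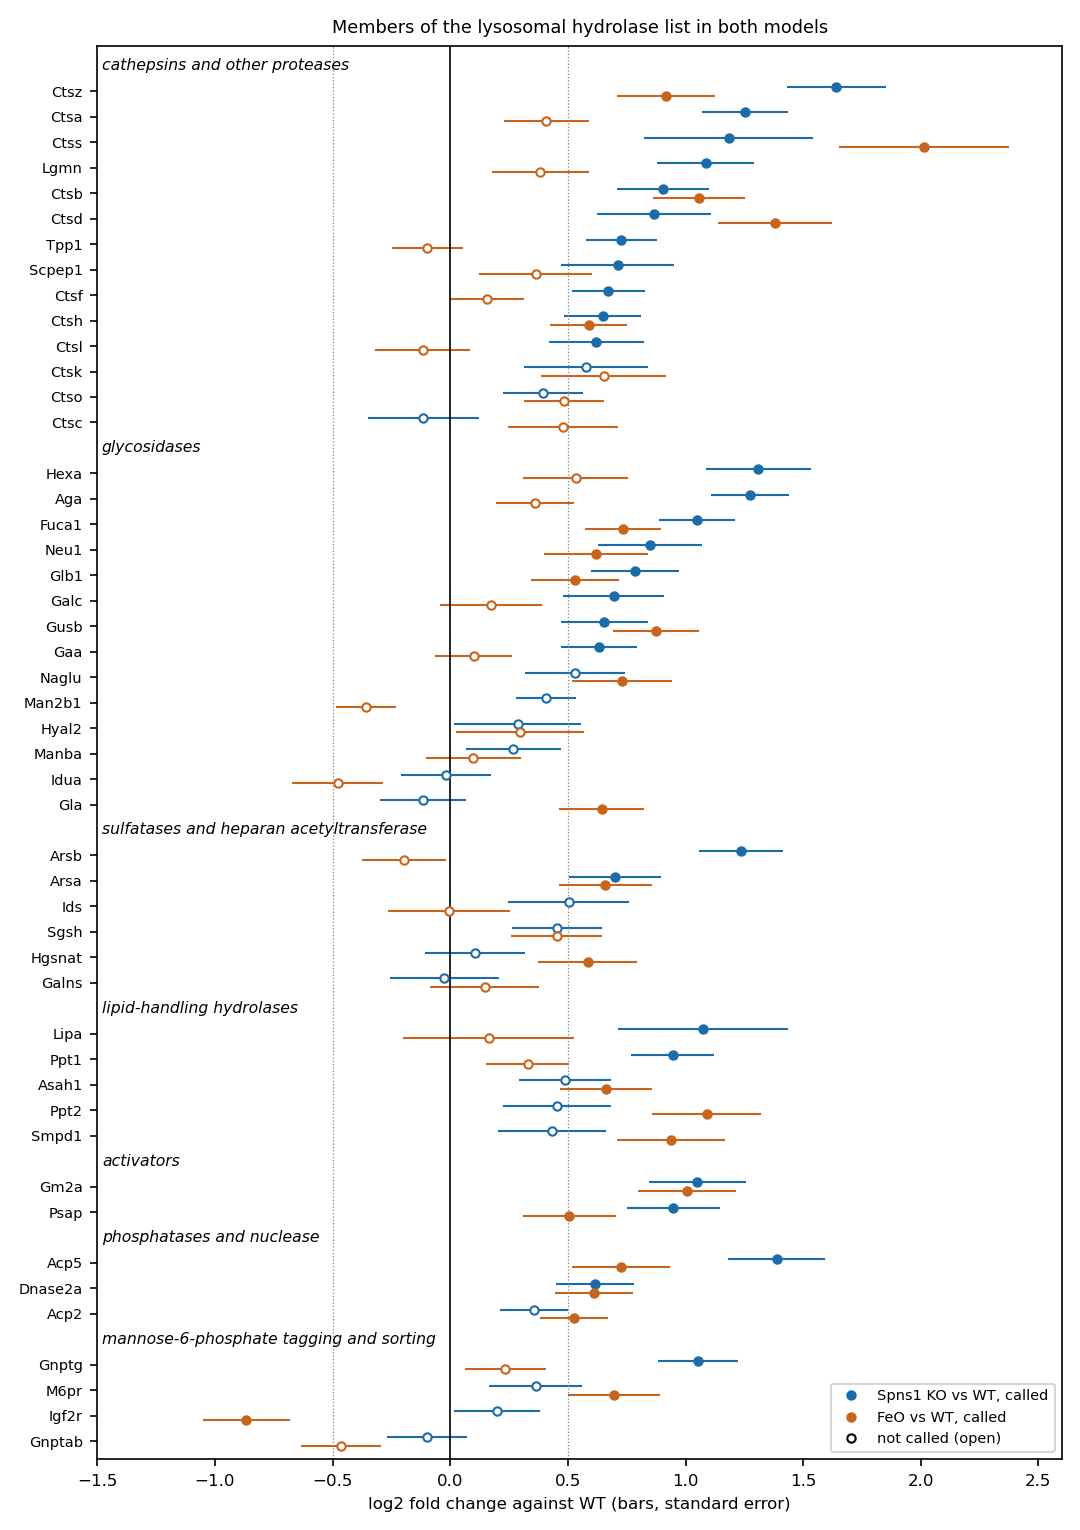
Log2 fold change against WT (horizontal axis, bars are standard errors from edgeR) of each of the 48 members, grouped by role, in Spns1 KO (blue) and FeO (orange). Filled points were called and open points were not, dotted lines mark 0.5 in either direction, and of the filled points only Igf2r in FeO lies below 0.

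Calls in both models fell on 14 members, Acp5, Arsa, Ctsb, Ctsd, Ctsh, Ctss, Ctsz, Dnase2a, Fuca1, Glb1, Gm2a, Gusb, Neu1 and Psap, all up, where 9.38% of all genes were up in both. Another 14 were called in Spns1 KO but not in FeO (7.34% of all genes), and 9 in FeO but not in Spns1 KO (27.9%), of which 8 were up and Igf2r was down. The remaining 11 were called in neither (50.5%). The same 5 WT libraries served both comparisons, so these calls are not independent, and a call in one model only does not show that the models differ. The models were therefore compared directly. In that test 14 members were higher in Spns1 KO than in FeO and 1 was lower, where 6.76% of all genes were called higher and 8.1% lower. These counts fell to 7 higher and 0 lower when only Spns1 KO and FeO libraries were fitted. They fell to 7 higher and 1 lower without Spns1 KO 1 or without Spns1 KO 2. Calls over all genes fell as well, from 1113 higher and 1334 lower to 441 and 599 of 15787 genes with only those groups. They were 615 and 787 of 16700 genes without Spns1 KO 1, and 683 and 764 of 16686 without Spns1 KO 2.

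Counts of all members summed gave the same order of the groups, with an exception. They took 0.557, 0.532, 0.591 and 0.353% of all counts in Spns1 KO 1 to 4, between 0.298 and 0.348% in the WT libraries, and between 0.389 and 0.488% in FeO. The library labelled Spns1 KO 4 thus lay just above the WT range, while the other three libraries with that label lay above every FeO library. Without it, 34 members were upregulated in Spns1 KO and their median log2 fold change was 0.75. In that fit 3003 of 16651 genes were upregulated, against 2307 of 16468 with all libraries. Without Spns1 KO 1 the number of members fell to 18, where 1601 of 16700 genes were upregulated. Omitting Spns1 KO 1 was the only single omission that moved the number of members by more than 1.5 times.

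Some of the sequences in which members differ lie at their start sites. RefSeq promoters (250 bases before to 50 bases after a start site, GRCm38.p6) were matched by symbol for 41 of the 48 members. The E-box core CACGTG, which reads the same on both strands, was present in 13 of the 41 (31.7%), against 8.98% of the 17177 genes of the count table with a promoter. The longer palindrome TCACGTGA, which contains the core, was present in 5 members (12.2%) and in 1.41% of all. The 5 stretches of 110 bases that hold it are shown 5′ to 3′ with the cores in capitals, because the members that share this sequence differed in their calls. Ctsa, Ctsd and Gnptg were upregulated in Spns1 KO and Ctsd in FeO as well, Gla was upregulated in FeO alone, and Igf2r was downregulated in FeO.
Ctsa (chr2:164833709-164833818, plus strand): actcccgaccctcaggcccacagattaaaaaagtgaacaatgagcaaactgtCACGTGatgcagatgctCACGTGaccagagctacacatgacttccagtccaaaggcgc
Ctsd (chr7:142387868-142387977, minus strand): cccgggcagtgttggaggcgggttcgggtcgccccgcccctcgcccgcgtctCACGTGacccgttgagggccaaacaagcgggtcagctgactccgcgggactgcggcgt
Gla (chrX:134601146-134601255, minus strand): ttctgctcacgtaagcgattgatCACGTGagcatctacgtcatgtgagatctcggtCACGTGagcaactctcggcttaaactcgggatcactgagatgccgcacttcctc
Gnptg (chr17:25240080-25240189, minus strand): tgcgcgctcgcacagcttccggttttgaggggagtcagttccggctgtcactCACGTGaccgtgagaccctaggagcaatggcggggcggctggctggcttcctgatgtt
Igf2r (chr17:12769697-12769806, minus strand): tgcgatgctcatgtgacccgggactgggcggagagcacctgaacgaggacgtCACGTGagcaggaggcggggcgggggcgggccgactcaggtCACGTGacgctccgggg
Ctsa, Gla and Igf2r each hold 2 cores in the stretch shown, while Ctsd and Gnptg hold 1. Of the 13 members with a core, 9 were upregulated in Spns1 KO and 5 were up and 1 down in FeO. Of the 28 members with a promoter but no core, 16 were up in Spns1 KO and 12 in FeO. Of all genes tested, 14% were up in Spns1 KO and 22.4% in FeO. The median log2 fold change of the members in Spns1 KO was 0.67 with a core and 0.67 without. A match is a description of the letters in this window and not evidence of binding.

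**Figure D2:**
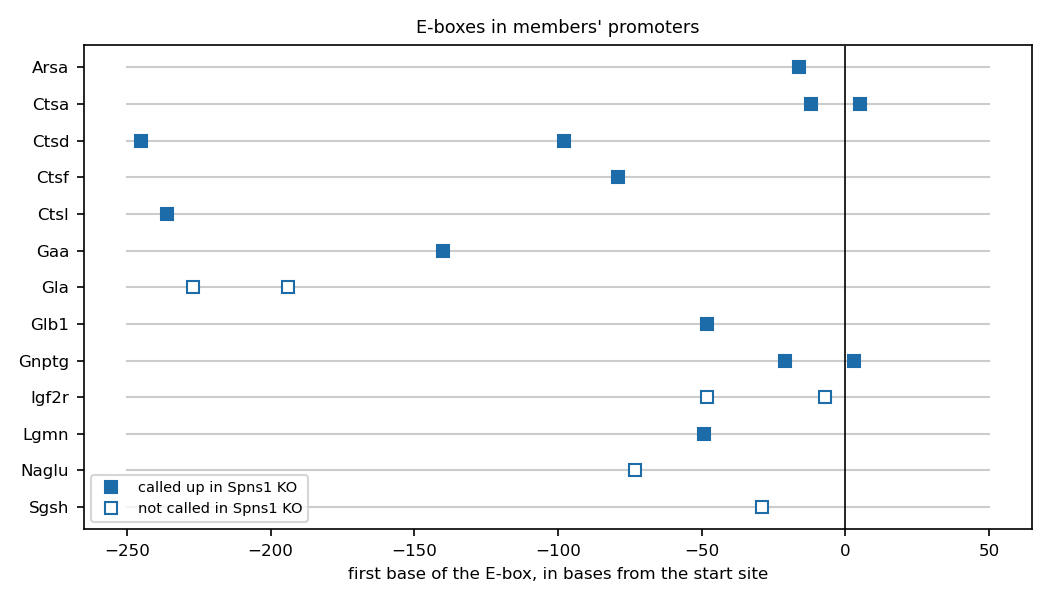
Position of the first base of each E-box core (horizontal axis, bases from the RefSeq start site at 0, a core within reach of several start sites being drawn for each) in the promoters of the 13 members that hold one, each grey line being the window searched. Filled squares belong to the 9 members upregulated in Spns1 KO and open squares to the other 4, and both kinds occur close to the start site and far from it.

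Proteases made up the largest share of calls in Spns1 KO. Of 14 cathepsins and other proteases, 11 were upregulated in Spns1 KO (median log2 fold change 0.72) and 5 in FeO (median 0.48), and 0 were downregulated in either. Ctsz, a carboxypeptidase of the papain family (chromosome 2 from 174427493 to 174439039 of GRCm38), rose the most in Spns1 KO. Its level was 71.7, 77.9, 81.7 and 42.6 CPM in Spns1 KO 1 to 4, 27.9, 26.2, 17.6, 18.9 and 19.2 in WT 1 to 5 and 30.3, 41.7, 47.8 and 46.1 in FeO 1 to 4. Every Spns1 KO library and every FeO library lay above every WT library, and the lowest Spns1 KO library, number 4, lay within the FeO range. The log2 fold change was 1.64 in Spns1 KO (standard error 0.21, edgeR adjusted p = 0.000387) and 0.92 in FeO (standard error 0.21, edgeR adjusted p = 0.00294). The FeO call was lost when a trend on transcript length and GC content was removed (0.50, edgeR adjusted p = 0.0453).

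Ctsa, the carboxypeptidase that also stabilizes beta-galactosidase and neuraminidase in a complex (chromosome 2 from 164832873 to 164841032), was measured at 168, 148, 166 and 105 CPM in Spns1 KO 1 to 4, 76.04, 70.6, 53.9, 56.5 and 50.6 in WT 1 to 5 and 64.00, 95.7, 77.9 and 89.1 in FeO 1 to 4. All 4 Spns1 KO libraries exceeded every other library. Of the 31-base sequences of Ctsa, 14.6% also occur in transcripts of other genes, with most matches to Pltp on the other strand. Ctsa rose by 1.25 on the log2 scale in Spns1 KO (standard error 0.18, edgeR adjusted p = 0.000513), a 2.38-fold difference. In FeO the log2 fold change was 0.41 (standard error 0.18, edgeR adjusted p = 0.0761) and was not called. The direct difference between the models, 0.84 (standard error 0.19, edgeR adjusted p = 0.0115), passed the test. Its partners in the complex were called in both models, as given with the glycosidases.

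Lgmn, the asparaginyl endopeptidase that trims other lysosomal proteases, was among the most abundant members, at 426, 395, 439.6 and 223 CPM in Spns1 KO 1 to 4, 209.8, 189.5, 153, 176 and 145 in WT 1 to 5 and 195, 247, 276 and 194 in FeO 1 to 4. Spns1 KO 4 was again the lowest of its group and lay inside the FeO range, but above all WT libraries. Lgmn rose in Spns1 KO by 1.09 (standard error 0.20, edgeR adjusted p = 0.00213), and in FeO its log2 fold change was 0.38 (standard error 0.20, edgeR adjusted p = 0.134). Tpp1, a tripeptidyl peptidase whose loss causes a neuronal ceroid lipofuscinosis, had 226, 194, 202 and 189.6 CPM in Spns1 KO 1 to 4, 127, 128, 127, 125 and 105 in WT 1 to 5 and 98.6, 96.2, 115 and 148 in FeO 1 to 4. The Spns1 KO libraries stood clear of both other groups, which overlapped each other. Tpp1 rose by 0.73 in Spns1 KO (standard error 0.15, edgeR adjusted p = 0.00368) and had a log2 fold change of -0.10 in FeO (standard error 0.15, edgeR adjusted p = 0.614), with a direct difference of 0.82 (edgeR adjusted p = 0.00591).

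Ctsb, a cysteine protease, and Ctsd, the main aspartic protease of lysosomes, were higher in both models. Ctsb stood at 371, 339, 414 and 206 CPM in Spns1 KO 1 to 4, 189.7, 182, 155, 194 and 167 in WT 1 to 5 and 413, 281, 421 and 361 in FeO 1 to 4. Every library of both models lay above every WT library, Spns1 KO 4 only narrowly. Ctsb rose by 0.91 in Spns1 KO (standard error 0.20, edgeR adjusted p = 0.00489) and by 1.06 in FeO (standard error 0.20, edgeR adjusted p = 0.000924). Ctsd stood at 286, 267, 339 and 146 CPM in Spns1 KO 1 to 4, 142, 138, 127, 154 and 151 in WT 1 to 5 and 547, 244, 324 and 369 in FeO 1 to 4. Spns1 KO 4 fell inside the WT range here, and FeO 1 was the highest library of all. Ctsd rose by 0.87 in Spns1 KO (standard error 0.24, edgeR adjusted p = 0.0186) and by 1.38 in FeO (standard error 0.24, edgeR adjusted p = 0.000721). Its call in Spns1 KO was lost without Spns1 KO 1, 2 or 3 (log2 fold changes over single omissions 0.71 to 1.06) and with the trend on transcript length and GC content removed (0.67, edgeR adjusted p = 0.0583). Of the 31-base sequences of the Ctsd transcripts, 33.2% also occur in transcripts of other genes, so its counts are uncertain. Most matches were to Gm49369, an overlapping gene on the same strand.

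Ctss, a cysteine protease of antigen-presenting cells, had the largest change of the list in FeO, from a low level. It was measured at 12.9, 10.9, 18.6 and 7.97 CPM in Spns1 KO 1 to 4, 6.997, 7.36, 3.34, 6.39 and 3.59 in WT 1 to 5 and 18.3, 8.95, 27.2 and 35.2 in FeO 1 to 4. FeO 3 and FeO 4 were the highest libraries, FeO 1 and FeO 2 lay inside the Spns1 KO range, and no library of either model overlapped with WT. Ctss rose by 2.01 in FeO (standard error 0.36, edgeR adjusted p = 0.000798) and by 1.18 in Spns1 KO (standard error 0.36, edgeR adjusted p = 0.0271). The Spns1 KO call was lost without Spns1 KO 1, Spns1 KO 3, WT 3 or WT 5 (0.94 to 1.35 over single omissions) and with the length and GC trend removed (0.94, edgeR adjusted p = 0.0615). The summed level of the 13 macrophage and other leukocyte markers moved the same way, from 65.8 to 81.7 CPM in WT, 95.5 to 144 CPM in Spns1 KO and 110 to 209 CPM in FeO. None of the 13 was at 0 in every library, but Aif1 did not pass the filter on low counts. Of the 12 markers tested, 3 rose in Spns1 KO and 9 in FeO, where 14% and 22.4% of all genes were called up. The part of these markers in the level of Ctss, or of any other member that macrophages also make, was not tested.

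**Figure D3:**
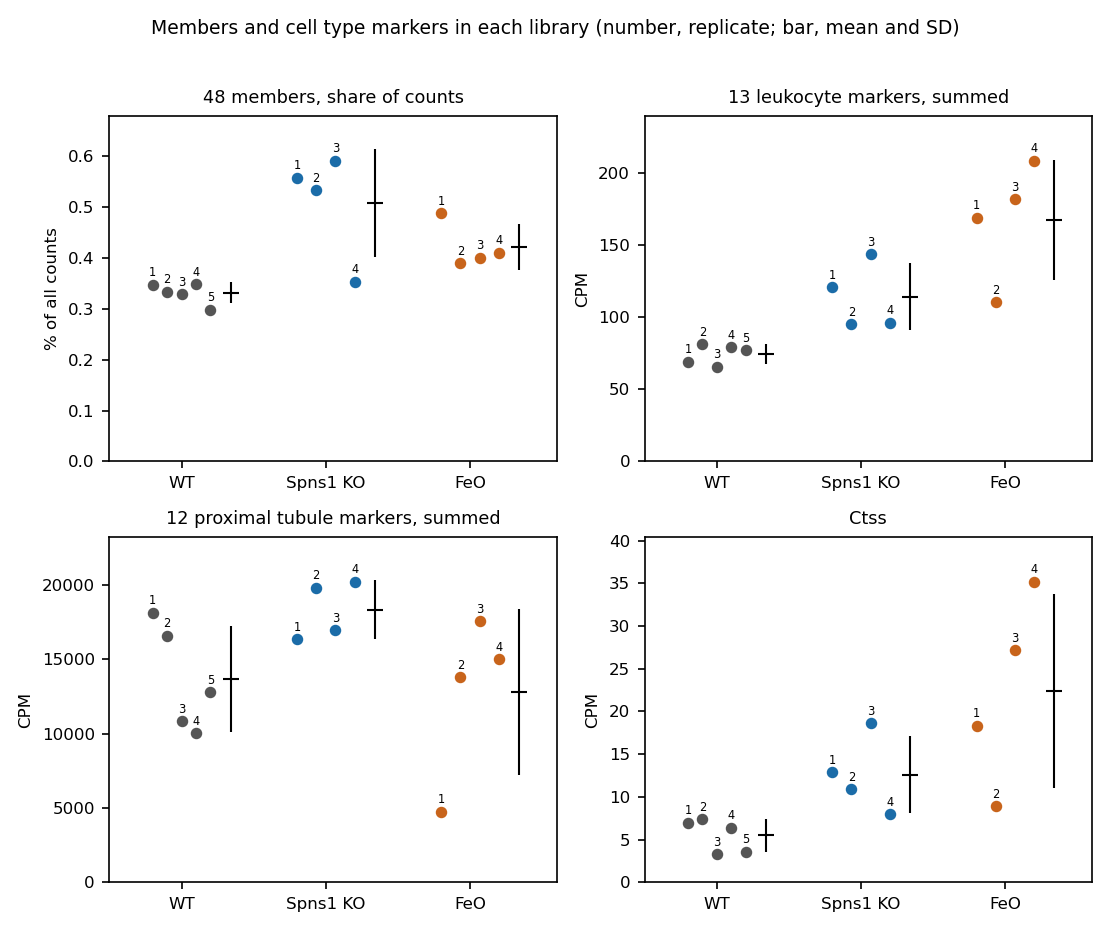
Share of all counts taken by the 48 members (percent), summed level of 13 leukocyte markers and of 12 proximal tubule markers (CPM), and level of Ctss (CPM) in each library, with the replicate number beside each point and the group mean with SD as a bar. The leukocyte markers and Ctss are lowest in the 5 WT libraries, Spns1 KO 4 holds a smaller member share than the other libraries of its group, and FeO 1 has a proximal tubule sum of 4761 CPM against 10014 to 20214 CPM elsewhere.

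The other proteases changed less. Ctsf, Ctsh, Ctsl and Scpep1 rose in Spns1 KO with log2 fold changes of 0.67, 0.65, 0.62 and 0.71 (edgeR adjusted p = 0.00751, 0.0111, 0.0373 and 0.0423), and of these Ctsh, an aminopeptidase, also rose in FeO, by 0.59 (edgeR adjusted p = 0.00957). Ctsl, the cysteine protease with the highest level of all members per length of transcript in WT, had a log2 fold change of -0.12 in FeO, which was not called. Of the 31-base sequences of Ctsl, 28.2% also occur in transcripts of other genes, with most matches to Gm47123, so its counts are uncertain. The calls of Ctsl and Scpep1 in Spns1 KO were each lost in 7 of the 13 fits with 1 library omitted, namely those without Spns1 KO 1, 2 or 3 or WT 2, 3, 4 or 5 (0.56 to 0.74 and 0.55 to 0.89). With the length and GC trend removed, Ctsf, Ctsh and Scpep1 were no longer called in Spns1 KO, with log2 fold changes of 0.47, 0.43 and 0.61. Ctsh was also lost in FeO (0.22), as it was without FeO 3. Ctsc, which activates granule proteases of leukocytes, Ctsk, a collagenase best known from osteoclasts, and Ctso were called in neither model. Their log2 fold changes were -0.11, 0.58 and 0.39 in Spns1 KO, against 0.48, 0.65 and 0.48 in FeO.

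Of the 14 glycosidases and related enzymes, 8 were upregulated in Spns1 KO (median log2 fold change 0.64) and 6 in FeO (median 0.44). Of all genes tested, 14% were up in Spns1 KO and 22.4% in FeO. Hexa, the alpha subunit of beta-hexosaminidase A, which removes a sugar from ganglioside GM2, was measured at 44.9, 44.1, 59.6 and 26.3 CPM in Spns1 KO 1 to 4, 22.7, 21.04, 15.2, 15.05 and 14.2 in WT 1 to 5 and 32.5, 19.9, 24.7 and 25.04 in FeO 1 to 4. Spns1 KO 1, 2 and 3 were higher than any library of the other groups, and Spns1 KO 4 lay among the FeO values. Hexa rose in Spns1 KO by 1.31 (standard error 0.22, edgeR adjusted p = 0.00117), and its log2 fold change in FeO was 0.53 (standard error 0.22, edgeR adjusted p = 0.0625). Aga, the amidase that splits asparagine from sugar chains, had 14.3, 17.7, 15.3 and 11.9 CPM in Spns1 KO 1 to 4, 6.13, 7.06, 6.17, 5.26 and 5.98 in WT 1 to 5 and 6.98, 6.88, 9.39 and 8.21 in FeO 1 to 4. The lowest Spns1 KO library exceeded the highest of both other groups. Aga rose by 1.27 in Spns1 KO (standard error 0.17, edgeR adjusted p = 0.000393), with a log2 fold change of 0.36 in FeO (standard error 0.17, edgeR adjusted p = 0.0899) and a direct difference of 0.91 (edgeR adjusted p = 0.00589).

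Fuca1, which removes fucose, was higher in both models, at 87.9, 75.3, 84.2 and 53.9 CPM in Spns1 KO 1 to 4, 41.6, 38.7, 34.4, 36.6 and 30.7 in WT 1 to 5 and 56.9, 50.5, 61.5 and 73.3 in FeO 1 to 4. No library of either model overlapped with WT. It rose by 1.05 in Spns1 KO (standard error 0.16, edgeR adjusted p = 0.000685) and by 0.73 in FeO (standard error 0.16, edgeR adjusted p = 0.00251). Glb1 and Neu1, the beta-galactosidase and sialidase held in the complex with Ctsa, had levels of 73.3, 65.1, 68.2 and 37.4 CPM in Spns1 KO 1 to 4, 34.4, 33.6, 33.04, 44.9 and 31.1 in WT 1 to 5 and 49.4, 50.6, 61.97 and 42.4 in FeO 1 to 4, and of 223, 176, 194 and 122 CPM in Spns1 KO 1 to 4, 127, 111, 87.5, 89.3 and 79.99 in WT 1 to 5 and 137, 187, 188 and 96.8 in FeO 1 to 4, respectively. Each model overlapped WT in at least 1 library for both genes, and for Glb1 the overlap rested on WT 4. Glb1 rose by 0.78 and 0.53 (standard errors 0.19 and 0.19, edgeR adjusted p = 0.0085 and 0.0316) and Neu1 by 0.85 and 0.62 (standard errors 0.22 and 0.22, edgeR adjusted p = 0.0138 and 0.0336) in Spns1 KO and FeO. The FeO call of Glb1 was lost without WT 1, 2, 3 or 5 or FeO 3 (0.42 to 0.65), and that of Neu1 without WT 3, 4 or 5 or FeO 2 or 3 (0.50 to 0.81). Neu1 was also not called in Spns1 KO without Spns1 KO 1, and neither was called in FeO with the length and GC trend removed (0.34 and 0.46).

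Gusb, beta-glucuronidase, stood at 18.8, 17.9, 18.04 and 11.9 CPM in Spns1 KO 1 to 4, 11.2, 10.8, 8.98, 12.8 and 9.11 in WT 1 to 5 and 25.1, 15.8, 19.3 and 17.4 in FeO 1 to 4. Spns1 KO 4 lay within the WT range, and all FeO libraries lay above it. Gusb rose by 0.65 in Spns1 KO (standard error 0.18, edgeR adjusted p = 0.0192), a call that was lost without Spns1 KO 1, 2 or 3 (0.59 to 0.79), and by 0.87 in FeO (standard error 0.18, edgeR adjusted p = 0.00188). Naglu, which acts on heparan sulfate, was measured at 24.6, 20.9, 28.1 and 16.7 CPM in Spns1 KO 1 to 4, 19.8, 18.2, 12.5, 13.4 and 14.1 in WT 1 to 5 and 28.1, 32.4, 26.5 and 16.5 in FeO 1 to 4. The FeO range reached down into the WT range through FeO 4. Naglu rose in FeO by 0.73 (standard error 0.21, edgeR adjusted p = 0.0124), while in Spns1 KO its log2 fold change of 0.53 (standard error 0.21, edgeR adjusted p = 0.08) was not called.

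Gla and Man2b1 separated the models. Gla, the alpha-galactosidase deficient in Fabry disease (chromosome X from 134588149 to 134601125), had 7.54, 8.20, 8.55 and 5.97 CPM in Spns1 KO 1 to 4, 8.33, 7.36, 7.75, 8.44 and 9.11 in WT 1 to 5 and 15.5, 9.15, 15.2 and 11.4 in FeO 1 to 4. The FeO libraries lay above every WT and every Spns1 KO library, FeO 2 by a narrow margin. Gla rose by 0.64 in FeO (edgeR adjusted p = 0.0106), in Spns1 KO its log2 fold change was -0.12 (edgeR adjusted p = 0.668), and it was the only member called lower in Spns1 KO than in FeO, by -0.76 (standard error 0.19, edgeR adjusted p = 0.0182). Without FeO 1, 0 members were called lower in Spns1 KO than in FeO, without FeO 4 2 were, and without FeO 2 3 were. Over all genes, 636, 1588 and 1630 were called lower in these fits. Man2b1, an alpha-mannosidase, stood at 116, 108, 97.1 and 106 CPM in Spns1 KO 1 to 4, 85.5, 81.4, 80.3, 78.9 and 76.1 in WT 1 to 5 and 60.4, 76.3, 54.3 and 59.97 in FeO 1 to 4. Its 3 groups did not overlap except that FeO 2 reached the WT range. It was called in neither model against WT, with log2 fold changes of 0.41 and -0.36 (edgeR adjusted p = 0.0312 and 0.0333), both short of the limit on size, but the models differed by 0.76 (standard error 0.14, edgeR adjusted p = 0.00417).

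Among the other glycosidases, Gaa, the acid glucosidase that breaks down glycogen, and Galc, which acts on galactosylceramide, rose in Spns1 KO by 0.63 and 0.69 (edgeR adjusted p = 0.0125 and 0.03), and their log2 fold changes in FeO were 0.10 and 0.17. The Galc call was lost in 6 of the 13 fits with 1 library omitted, those without Spns1 KO 1, 2 or 3 or WT 1, 2 or 5 (0.58 to 0.85). Manba, Idua and Hyal2 were called in neither model, with log2 fold changes of 0.27, -0.019 and 0.29 in Spns1 KO, against 0.10, -0.48 and 0.30 in FeO. They act on mannosides, on heparan and dermatan sulfate, and on hyaluronan.

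Of the 5 sulfatases and Hgsnat, which together dismantle glycosaminoglycans and sulfated lipids, 2 rose in Spns1 KO and 2 in FeO. Of all genes tested, 14% were up in Spns1 KO and 22.4% in FeO. Arsb, the sulfatase of dermatan sulfate (chromosome 13 from 93771630 to 93943016), showed the widest gap between the models, at 111, 76.9, 101 and 78.5 CPM in Spns1 KO 1 to 4, 42.7, 42.1, 36.9, 46.1 and 27.2 in WT 1 to 5 and 29.7, 29.2, 35.4 and 41.9 in FeO 1 to 4. The Spns1 KO libraries lay far above all others, and the FeO values lay within the WT range. Arsb rose 2.35-fold in Spns1 KO, a log2 fold change of 1.24 (standard error 0.18, edgeR adjusted p = 0.000505). In FeO the log2 fold change was -0.20 (standard error 0.18, edgeR adjusted p = 0.379). The direct difference, 1.43 (standard error 0.19, edgeR adjusted p = 0.00111), was the largest of the list. However, 39.6% of the 31-base sequences of its transcripts also occur in transcripts of other genes, with most matches to Gm26527. Arsa, which desulfates sulfatide, rose in both models, by 0.70 and 0.66 (edgeR adjusted p = 0.0194 and 0.0143), calls that were lost without Spns1 KO 1 or 3 in Spns1 KO (0.58 to 0.82) and without FeO 1 in FeO (0.46 to 0.76). Hgsnat, the membrane enzyme that acetylates heparan sulfate, rose in FeO by 0.58 (edgeR adjusted p = 0.0341), with FeO 1 highest, and the call was lost without FeO 1 and without WT 1, 2 or 3 (0.36 to 0.70), and with the length and GC trend removed (0.49). Galns, Ids and Sgsh were called in neither model, with log2 fold changes of -0.025, 0.50 and 0.45 in Spns1 KO, against 0.15, -0.0049 and 0.45 in FeO.

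Lipid-handling hydrolases were called in different models, with 2 of 5 upregulated in Spns1 KO and 3 in FeO. Ppt1, which removes palmitate from proteins, was measured at 73.6, 52.2, 55.1 and 54.3 CPM in Spns1 KO 1 to 4, 29.5, 31.8, 28.8, 37.97 and 24.6 in WT 1 to 5 and 40.8, 28.1, 35.2 and 49.6 in FeO 1 to 4. Every Spns1 KO library lay above both other groups. Ppt1 rose by 0.95 in Spns1 KO (standard error 0.18, edgeR adjusted p = 0.00199), and in FeO the log2 fold change was 0.33 (standard error 0.18, edgeR adjusted p = 0.137). Its relative Ppt2, a thioesterase of other specificity, stood at 54.9, 46.3, 52.1 and 26.1 CPM in Spns1 KO 1 to 4, 38.4, 31.98, 30.7, 32.7 and 29.7 in WT 1 to 5 and 69.6, 72.3, 95.8 and 40.9 in FeO 1 to 4. All FeO libraries were above WT, and the Spns1 KO libraries spread from below to above the WT range. Ppt2 rose by 1.09 in FeO (standard error 0.23, edgeR adjusted p = 0.00193), with a log2 fold change of 0.45 in Spns1 KO (standard error 0.23, edgeR adjusted p = 0.163). The difference of Ppt2 between the models was -0.63 (standard error 0.24, edgeR adjusted p = 0.0864) and did not pass the test. Of its 31-base sequences, 33.9% also occur in transcripts of other genes, with most matches to Gm20460.

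Smpd1, acid sphingomyelinase, was measured at 71.01, 62.9, 77.1 and 35.01 CPM in Spns1 KO 1 to 4, 46.3, 40.4, 43.4, 56.02 and 41.5 in WT 1 to 5 and 127, 72.7, 86.1 and 63.00 in FeO 1 to 4. All 4 FeO libraries exceeded every WT library, and Spns1 KO 4 was the lowest library of the series. Smpd1 rose by 0.94 in FeO (standard error 0.23, edgeR adjusted p = 0.0047), and in Spns1 KO the log2 fold change was 0.43 (standard error 0.23, edgeR adjusted p = 0.181). Asah1, acid ceramidase, acts on the product of Smpd1 and also rose in FeO, by 0.66 (edgeR adjusted p = 0.0135), a call lost without FeO 1 (0.49 to 0.81), with 0.49 in Spns1 KO. Lipa, which frees cholesterol from its esters, spread widely within Spns1 KO, at 367, 229.7, 500.5 and 104 CPM in Spns1 KO 1 to 4, 128, 121, 157, 213 and 93.4 in WT 1 to 5 and 128, 155, 239.9 and 117 in FeO 1 to 4. Spns1 KO 3 was the highest library of the series, and Spns1 KO 4 lay inside the WT range. Lipa rose by 1.07 in Spns1 KO (standard error 0.36, edgeR adjusted p = 0.0425), and the call was lost without Spns1 KO 1, 2 or 3 or WT 1, 2, 3 or 5 (0.71 to 1.36). Its log2 fold change in FeO was 0.16 (standard error 0.36, edgeR adjusted p = 0.728).

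Both activator proteins, which present lipids to hydrolases, were upregulated in both models, where 9.38% of all genes were. Psap, the precursor of the saposins and one of the most abundant members, stood at 802, 768, 877 and 497 CPM in Spns1 KO 1 to 4, 434, 424, 397, 358 and 294 in WT 1 to 5 and 638, 413, 554 and 564 in FeO 1 to 4. The Spns1 KO libraries all lay above WT, and FeO 2 lay inside the WT range. Psap rose by 0.95 in Spns1 KO (standard error 0.20, edgeR adjusted p = 0.004) and by 0.51 in FeO (standard error 0.20, edgeR adjusted p = 0.0469). The FeO call sat at the limits and was lost in 11 of the 13 fits with 1 library omitted, all but those without Spns1 KO 4 and without FeO 2 (0.44 to 0.64), and with the length and GC trend removed (0.38). Gm2a, the cofactor that presents ganglioside GM2 to beta-hexosaminidase A, had 149, 147, 145 and 76.2 CPM in Spns1 KO 1 to 4, 72.5, 64.1, 53.99, 66.2 and 55.5 in WT 1 to 5 and 99.4, 115, 172 and 116 in FeO 1 to 4. Spns1 KO 1 to 3 lay close together, while Spns1 KO 4 lay just above the highest WT library. Gm2a rose by 1.05 in Spns1 KO (standard error 0.21, edgeR adjusted p = 0.0029) and by 1.01 in FeO (standard error 0.21, edgeR adjusted p = 0.00168), and their difference was 0.043 (standard error 0.22, edgeR adjusted p = 0.91).

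**Figure D4:**
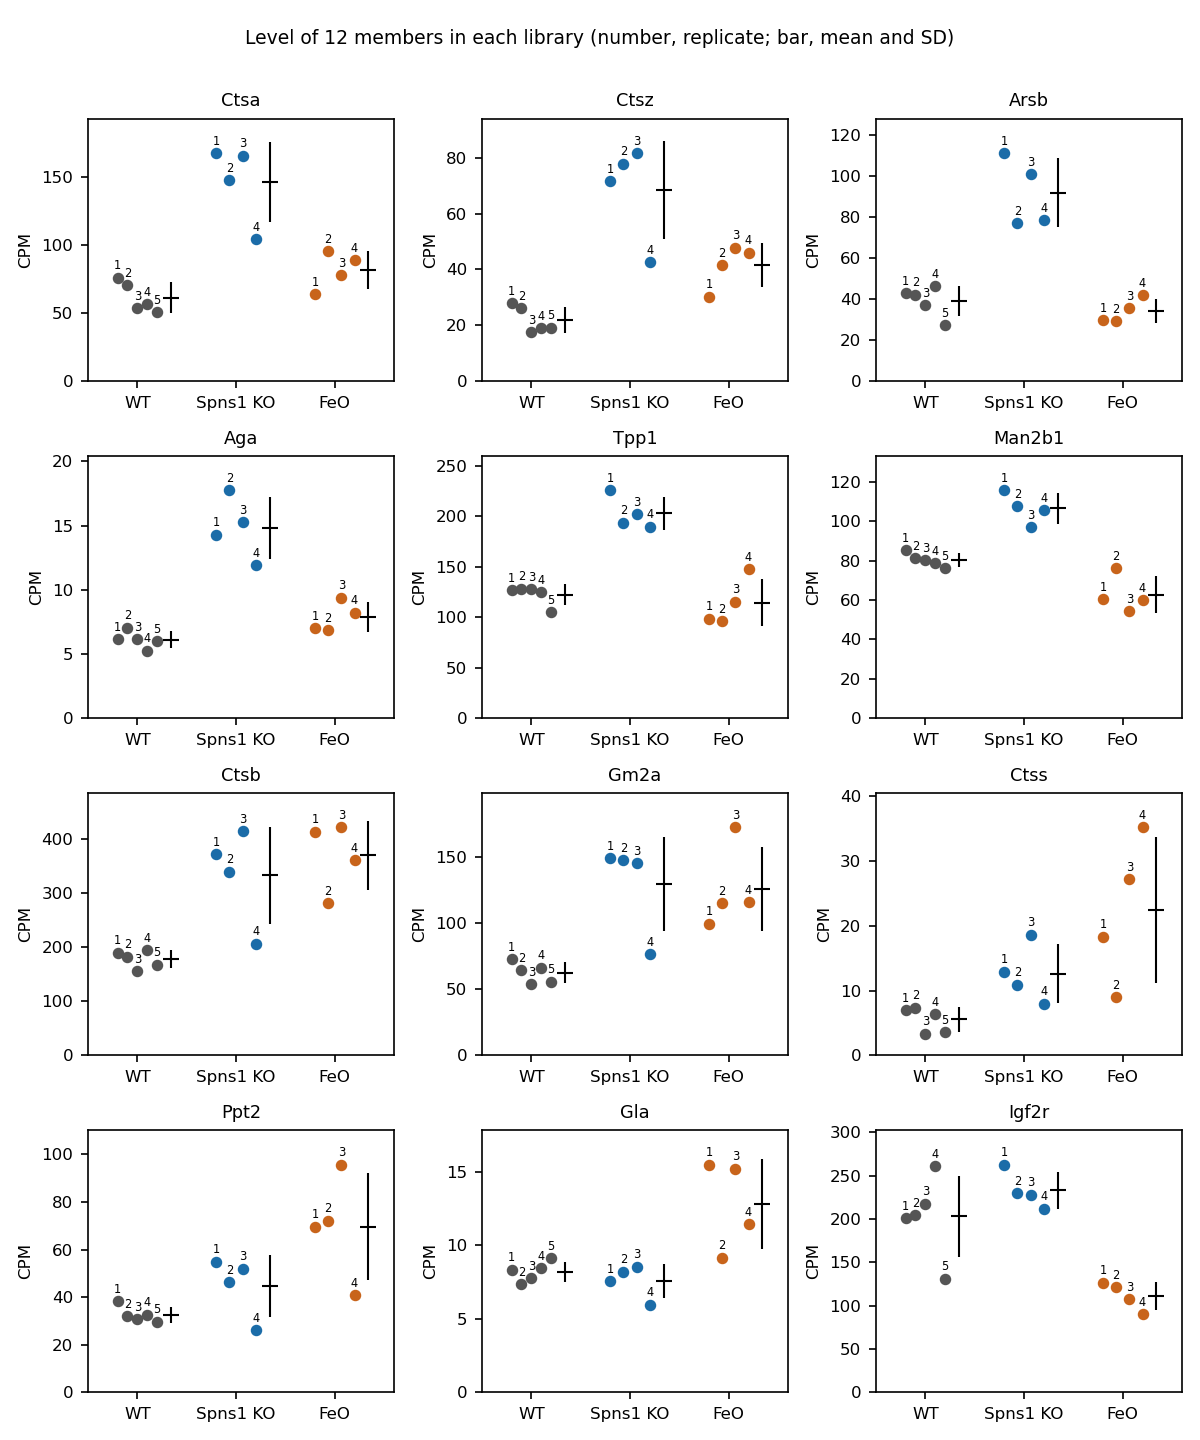
Level (CPM, axes from 0) of 12 members in each library, with the replicate number above each point and the group mean with SD as a bar. Ctsa, Arsb, Aga, Tpp1 and Man2b1 are higher in every Spns1 KO library than in any other, Gla is highest and Igf2r lowest in the 4 FeO libraries, and Ctsb, Gm2a and Ctss are above WT in every library of both models.

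Of the phosphatases and the nuclease, 2 of 3 rose in Spns1 KO and 3 in FeO, where 14% and 22.4% of all genes were up. Acp5, the tartrate-resistant acid phosphatase, best known from osteoclasts and macrophages, was measured at 17.4, 13.5, 18.1 and 10.5 CPM in Spns1 KO 1 to 4, 6.62, 6.501, 4.66, 5.72 and 4.90 in WT 1 to 5 and 7.41, 8.05, 12.1 and 10.1 in FeO 1 to 4. Both models lay above WT in every library. Acp5 rose by 1.39 in Spns1 KO (standard error 0.21, edgeR adjusted p = 0.000565) and by 0.73 in FeO (standard error 0.21, edgeR adjusted p = 0.011). The leukocyte markers given beside Ctss had 3 calls in Spns1 KO and 9 in FeO, and their part in Acp5 was not tested. The difference of Acp5 between the models was 0.66 (edgeR adjusted p = 0.0512). Acp2, the lysosomal acid phosphatase, rose in FeO by 0.53 (edgeR adjusted p = 0.00932), a call lost without WT 1, 2 or 5 or FeO 1 (0.48 to 0.62), and Dnase2a, the nuclease that digests DNA in lysosomes, rose in both by 0.62 and 0.61 (edgeR adjusted p = 0.0154 and 0.00844). The Spns1 KO call of Dnase2a was lost without Spns1 KO 1 or 3 (0.53 to 0.75). Of its 31-base sequences, 30.02% also occur in transcripts of other genes, with most matches to Mast1 on the other strand. With the length and GC trend removed, Dnase2a was not called in either model (0.43 and 0.33) and Acp5 not in FeO (0.27).

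The tagging and sorting genes did not move together. Gnptg, the gamma subunit of the phosphotransferase that starts the mannose-6-phosphate tag (chromosome 17 from 25233331 to 25240124), had 40.3, 41.4, 41.3 and 29.4 CPM in Spns1 KO 1 to 4, 21.9, 21.9, 18.4, 13.95 and 15.6 in WT 1 to 5 and 18.3, 20.6, 22.2 and 25.3 in FeO 1 to 4. Every Spns1 KO library exceeded every WT and FeO library. It rose by 1.05 in Spns1 KO (standard error 0.17, edgeR adjusted p = 0.00086), its log2 fold change in FeO was 0.23 (standard error 0.17, edgeR adjusted p = 0.274), and the direct difference was 0.82 (edgeR adjusted p = 0.0103). Of its 31-base sequences 48.2% also occur in transcripts of other genes, with most matches to Unkl on the other strand. The sources used here do not say whether counting used strand, so this gene's counts are uncertain. Gnptab, which encodes the catalytic subunits of the same enzyme, was called in neither model, with log2 fold changes of -0.10 in Spns1 KO and -0.46 in FeO (edgeR adjusted p = 0.697 and 0.0368).

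Igf2r, the large receptor that carries mannose-6-phosphate-tagged hydrolases to endosomes (chromosome 17 from 12682406 to 12769664), was the only member called down in either model. It was measured at 263, 229.9, 228 and 212 CPM in Spns1 KO 1 to 4, 201, 205, 218, 261 and 131 in WT 1 to 5 and 127, 121, 108 and 90.2 in FeO 1 to 4. All FeO libraries lay below all WT libraries, although WT 5 came within a few CPM of FeO 1, and the Spns1 KO libraries lay inside or just above the WT range. Igf2r fell by 0.87 on the log2 scale in FeO (standard error 0.19, edgeR adjusted p = 0.00211), its log2 fold change in Spns1 KO was 0.20 (standard error 0.18, edgeR adjusted p = 0.444), and it was higher in Spns1 KO than in FeO by 1.06 (standard error 0.19, edgeR adjusted p = 0.00477). Igf2r has the longest transcript of the list, 8887 bases. After removal of the length and GC trend, its log2 fold change in FeO was -0.28 (edgeR adjusted p = 0.164) and no longer called, while in Spns1 KO it became 0.57 (edgeR adjusted p = 0.0209) and was called up. The direct difference was called with and without that step. The number of members called down in FeO was 2 without WT 1, WT 4, WT 5, FeO 1 or FeO 4. Over all genes, 2333 to 3109 were called down in those fits. The smaller receptor, M6pr, rose in FeO by 0.69 (edgeR adjusted p = 0.0104), and its log2 fold change in Spns1 KO was 0.36 (edgeR adjusted p = 0.189).

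The 14 members called higher in Spns1 KO than in FeO were Aga, Arsb, Ctsa, Ctsf, Ctsl, Ctsz, Gaa, Gnptg, Hexa, Igf2r, Lgmn, Man2b1, Ppt1 and Tpp1, with differences from 0.52 (Ctsf) to 1.43 (Arsb). Of the 15 members called in either direction, 7 kept the call in every fit with 1 library omitted and under every other setting: Ctsa, Tpp1, Man2b1, Aga, Arsb, Gnptg and Igf2r. The calls of the other 8 were lost in at least 1 fit with a library omitted, with differences of 0.47 to 0.60 for Ctsf, 0.65 to 0.87 for Ctsl, 0.60 to 0.90 for Ctsz, 0.61 to 0.88 for Lgmn, 0.40 to 0.64 for Gaa, 0.59 to 0.96 for Hexa and 0.49 to 0.76 for Ppt1 over the single omissions, and of -0.89 to -0.65 for Gla, which lost its call without FeO 1 and when only Spns1 KO and FeO libraries were fitted. The number called higher was 8 without Spns1 KO 3 and 9 without FeO 1, where 1089 of 16676 and 545 of 16681 genes were. FeO 1 held the lowest summed level of the 12 proximal tubule markers, 4761 CPM against 13800 to 17547 CPM in the other FeO libraries. In Spns1 KO 8 of those 12 markers were upregulated, and 7 were higher in Spns1 KO than in FeO, in the same direction as the 14 members. Their part in the differences was not tested.

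Transcript length ran alongside the calls. Over all genes tested the median transcript was 2950 bases, and it was 1671.5 bases for genes upregulated in Spns1 KO and 4657.5 bases for those downregulated. The members had a median of 2545.5 bases, and the 28 upregulated in Spns1 KO one of 2388.5 bases. After each library's trend on length and GC content had been taken out, 27 members passed as up in Spns1 KO and 16 in FeO. Their median log2 fold changes were 0.61 and 0.33. In the same fit 1875 of all 16468 genes were up in Spns1 KO and 3151 in FeO, with medians of 0.00034 and 0.037. Of the 28 calls in Spns1 KO 22 remained, and of the 23 calls in FeO 14 remained.

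**Figure D5:**
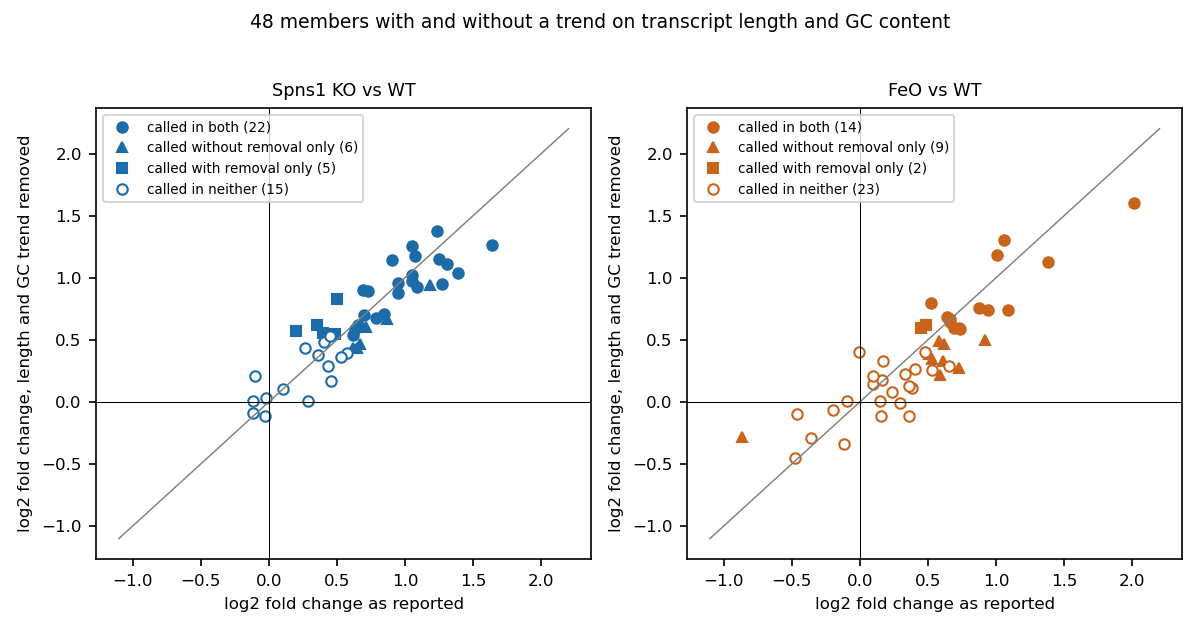
Log2 fold change of the 48 members as reported (horizontal axis) and with the trend on transcript length and GC content removed (vertical axis), in Spns1 KO (left) and FeO (right), the grey line marking equal values. Triangles are the 6 members in Spns1 KO and 9 in FeO whose calls were lost, squares the 5 and 2 that were gained, and Igf2r is the filled triangle below 0 in FeO.

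Other genes of the pathway were described from a list of 33, of which 32 were tested. In Spns1 KO 14 were upregulated and 0 downregulated (median log2 fold change 0.46), where 14% and 7.55% of all genes were, and in FeO 9 and 1 (median 0.33), where 22.4% and 19.7% of all genes were. Of 19 further acid hydrolases tested, 9 rose in Spns1 KO and 6 in FeO, and of 10 genes of hydrolase maturation, sorting and inhibition, 5 and 3. The largest log2 fold change in Spns1 KO was that of Cpq, a plasma carboxypeptidase found in lysosomes (1.47, edgeR adjusted p = 0.000402), and the smallest were those of Sort1, a sorting receptor (-0.44, edgeR adjusted p = 0.214), and Mitf (-0.41, edgeR adjusted p = 0.135). In FeO the largest and smallest were those of the cathepsin inhibitors Cstb (1.46, edgeR adjusted p = 0.000494) and Cst3 (1.40, edgeR adjusted p = 0.000461), and of Hyal1, a hyaluronidase (-0.95, edgeR adjusted p = 0.0239), and Gga3, an adaptor of the mannose-6-phosphate receptors (-0.48, edgeR adjusted p = 0.0412). Hyal1 was the one gene of this list called down. Tfeb, Tfe3 and Mitf, of the transcription factor family that binds E-boxes of the CLEAR type, were not called in either model. Their respective log2 fold changes were 0.033, -0.16 and -0.41 for Spns1 KO against -0.19, -0.12 and -0.025 for FeO. Binding to the members' promoters was not measured. Their transcript levels do not measure the activity of the proteins.

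The members differed widely in level. Per kilobase of transcript, Ctsl was highest in WT at 208 ± 47.4 CPM, followed by Psap at 144 ± 21.5, Lgmn at 87.8 ± 13.2, Ctsd at 66.9 ± 5.16 and Lipa at 48.04 ± 15.4 (SD, n = 5), and Ctsk was lowest at 2.03 ± 0.56. M6pr (41.5 ± 1.47), Neu1 (40.1 ± 7.94), Scpep1 (37.6 ± 7.71), Ctsb (37.4 ± 3.41) and Tpp1 (34.4 ± 2.78) lay within the spread of Lipa and cannot be ordered against it. In FeO, Psap (204 ± 35.4), Ctsl (192 ± 40.3) and Ctsd (174 ± 60.3, SD, n = 4) lay within each other's spread as well, as did Ctsl (320 ± 51.7) and Psap (277 ± 62.4, SD, n = 4) in Spns1 KO. These levels per length compare genes within the same libraries and depend on which transcript was taken to stand for a gene.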

How the data were processed

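The authors deposited an estimated count per gene symbol and library, without normalization. Their processing notes name bcl2fastq 2.19, kallisto 0.44.0 and GRCm38, whereas the methods describe alignment and gene counting with other tools. Counts were whole as deposited. Libraries were mapped to the groups by their labels (4 Spns1 KO, 5 WT, 4 FeO). Genes passing filterByExpr were tested with edgeR 4.0.16 in R 4.3.3 (TMM factors, quasi-likelihood test, 1 fit of all 13 libraries). The fit was tested on simulated counts. The methods name littermates as controls and tamoxifen given in parallel, but nothing states which libraries shared a litter or batch. Libraries were therefore fitted unpaired, and p-values measure the spread between these libraries.

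Alternatives were DESeq2 1.42.0, RLE factors, library totals, no filter, pairwise fits, a replicate block, removal of a trend on length and GC content (mgcv 1.9.3) and single omissions. Members and lists were chosen with earlier results of these data known. Full values went to the 24 called members with the largest change against WT. Gla and Man2b1, called between the models, were outside these 24 and were given in full as well. Positions, lengths and shared 31-base sequences are from GENCODE M21, promoters from RefSeq. Where no shared part is given with a member, it was 19.9% for Sgsh, 16.9% for Arsa, 13.0% for Ctsb, 12.1% for Acp2 and 11.4% for Hexa. For the rest it was at most 9.7% (M6pr). Of the pathway list, the 2 largest and 2 smallest changes per model and the transcription factors are named, except 1 gene that is not reported here.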

Additional observations from a re-analysis of the deposited data

Results flagged for a closer look

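Among 144 sets of libraries (48 members in 3 groups), 8 held a library that stood apart from the rest of its group by the size of its gap to the nearest other library. Chance alone flags about 1 in 20 such sets. Spns1 KO 4 was the library in 3 of the 8, with low levels of Gm2a (76.2 CPM against 145 to 149 CPM in the rest of its group), Gnptg (29.4 against 40.3 to 41.4 CPM) and Gusb (11.9 against 17.9 to 18.8 CPM). Ppt1 was high in Spns1 KO 1, at 73.6 CPM against 52.2 to 55.1 CPM. In WT, Tpp1 was low in WT 5, at 105 CPM against 125 to 128 CPM, and Glb1 was high in WT 4, at 44.9 CPM against 31.1 to 34.4 CPM. In FeO, Ctsh was high in FeO 3, at 93.1 CPM against 61.3 to 65.7 CPM, and Hgsnat was high in FeO 1, at 84.9 CPM against 47.2 to 52.1 CPM.

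The effects of the 2 models differed by the direct edgeR test for 15 members. The log2 difference of Spns1 KO from FeO was 1.43 for Arsb, 1.06 for Igf2r, 0.91 for Aga, 0.84 for Ctsa, 0.82 for Tpp1, 0.82 for Gnptg, 0.78 for Hexa, 0.76 for Man2b1, 0.74 for Ctsl, 0.72 for Ctsz, 0.70 for Lgmn, 0.62 for Ppt1, 0.53 for Gaa, 0.52 for Ctsf and -0.76 for Gla.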

How the results depend on the processing

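In Spns1 KO, 0 members were called down in any fit. Between 21 and 30 were called up under the other settings and 18 to 34 with 1 library omitted. DESeq2 gave 28 up, and library totals alone gave 21 and moved the median of all genes from -0.045 to -0.18. Over all genes, 1739 to 2763 were up under the other settings and 1531 to 3003 with 1 library omitted, and 504 to 2677 were down. The number of genes fitted ranged from 16293 to 35013. In FeO, 16 to 24 members were called up under the other settings and 18 to 25 with 1 library omitted, and 1 to 2 down. Over all genes, 3151 to 4177 and 3294 to 4042 were up in these fits, and 2333 to 3534 were down with 1 library omitted. Library totals alone and the replicate block each gave 2 members down, where 3453 and 3191 of all genes were. Removal of the length and GC trend gave 0 members down, where 2292 of all genes were. It lowered the median log2 fold change of the members to 0.33. Members higher in Spns1 KO than in FeO numbered 7 to 15 with 1 library omitted, 7 when only those groups were fitted and 9 with the block. Over all genes, 545 to 1457, 441 and 869 were higher in those fits. Members lower numbered 0 to 3 with 1 library omitted and 0 when only those groups were fitted. Over all genes these numbers were 636 to 1630 and 599. The cause of these shifts was not tested. Calls that held in every fit numbered 16 of 28 in Spns1 KO, 11 of 23 in FeO and 7 of 15 between the models. Deviations of same-numbered libraries correlated between -0.30 and 0.26, and nothing states whether replicate numbers follow litters. With the replicate block, 21 members were up in Spns1 KO and 16 in FeO, where 1931 and 3325 of all 16468 genes were. This is not read as a weaker effect, and the block cannot stand for a fit by litter.

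No called member changed sign. Among members not called, direction changed as follows. With the length and GC trend removed, log2 fold changes in Spns1 KO were 0.0077 for Gla, 0.030 for Idua and 0.21 for Gnptab, and in FeO -0.11 for Ctsf, 0.010 for Tpp1, -0.0071 for Hyal2, -0.11 for Aga and 0.41 for Ids. Without a filter they were 0.040 for Idua and 0.034 for Galns in Spns1 KO and 0.069 for Ids in FeO. Idua was at 0.0039 when Spns1 KO and WT alone were fitted, and Hgsnat at -0.029 by library totals. In FeO, Ids was at 0.012 by DESeq2 and 0.0078 by RLE factors, and with the block Manba was at -0.010 and Lipa at -0.050. With 1 library omitted, values in Spns1 KO ranged from -0.18 to 0.062 for Idua, -0.089 to 0.083 for Galns, -0.040 to 0.27 for Hgsnat and -0.18 to 0.030 for Gnptab. In FeO they ranged from -0.24 to 0.0048 for Ctsl, -0.081 to 0.27 for Manba, -0.046 to 0.47 for Hyal2, -0.057 to 0.32 for Galns, -0.13 to 0.23 for Ids and -0.10 to 0.37 for Lipa. Over single members and settings, 1950 values kept direction and side of the limits, 187 lost the call, 45 gained one and 38 changed sign.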
